A study of Mus musculus with 6 samples.

Results

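The enzymes and helper proteins that turn new procollagen into crosslinked fibres were followed in mesenchymal stromal cells, the fibroblast-like cells of connective tissue, by reading the rows of 10 gene symbols out of a count table of 52997. The 10 genes are the lysyl oxidases Lox, Loxl1 and Loxl2, the propeptide removal enhancers Pcolce and Pcolce2, the prolyl hydroxylase subunits P4ha1 and P4ha2, the lysyl hydroxylases Plod1 and Plod2, and the chaperone Serpinh1, and all 10 had enough counts to be tested. Cells were sorted from hindlimb skeletal muscle or from inguinal, axillary, brachial and cervical lymph nodes, pooled. All mice were C57BL/6 and 8 weeks old, and the labels name no treatment. Each of the 3 muscle and 3 lymph node libraries came from 1000 cells, and 2 muscle sample titles share a number, so it is not known whether every muscle library had its own animal. The p-values below therefore measure the spread between these libraries. Which surface markers the sorter gated on is not stated in the labels.

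Fibrillar collagen is made as a precursor in the endoplasmic reticulum. There, prolyl hydroxylases modify proline so that the triple helix stays folded at body temperature, lysyl hydroxylases modify lysine, and a collagen-specific chaperone holds the folded helix until it leaves. Outside the cell the propeptides are cut off, and lysyl oxidases convert lysine side chains into aldehydes that link neighbouring molecules, which gives muscle connective tissue and the reticular network of lymph nodes their strength.

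Total counts were 1844874, 1256276 and 415460 in muscle libraries 2, 3 and 4, as the table numbers them, and 1851940, 2397134 and 2300873 in lymph node libraries 1, 2 and 3. Every one of the 8 stromal markers examined, Pdgfra and Dcn among them, was present in all 6 libraries. Muscle library 4 stood apart, with Pearson r of log2 CPM (CPM is the usual depth-scaled read count, here taken with TMM library sizes) between 0.702 and 0.748 to the other libraries, which had r between 0.875 and 0.968 among themselves (across 10823 genes, which are not independent replicates). Ptprc, the common leukocyte antigen, reached 589 CPM in muscle library 4, against between 4.57 and 9.22 CPM in the other 5. Summed T cell markers, all 6 detected, reached 319.9 CPM there, against between 2.86 and 10.8 CPM elsewhere. Summed B cell markers reached 1817 CPM there, against between 15.4 and 255 CPM elsewhere. Results are therefore given with all 6 libraries and again without muscle library 4. The 8 stromal markers summed to between 15330 and 21249 CPM in muscle, lowest in library 4. In lymph node they summed to between 21537.5 and 22383 CPM, so the tissues did not overlap, by a small margin. The part of this difference in the results below was not tested.

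With all libraries none of the 10 genes passed the threshold. The edgeR quasi-likelihood F test, two-sided with Benjamini-Hochberg adjustment over the 10823 tested genes, called 4.32% of all genes at adjusted p under 0.05, with 1.46% of all genes higher and 2.86% lower in muscle. Among the 10 genes 2 had an unadjusted p under 0.05, both lower in muscle (Serpinh1 and Lox), as had 8.42% of all genes, while 6.71% had one with higher values. DESeq2, which called 6.34% of all genes, and limma-voom, which called 5.82%, each called 1 of the 10, Serpinh1, as lower. Without muscle library 4 the edgeR test called 3 of the 10: Loxl2 and Plod1 were higher in muscle and Serpinh1 was lower, where 4.79% of 11246 genes were called higher, 7.58% lower and 12.4% in either direction. The median log2 fold change of the 10, muscle minus lymph node, was -0.33 with all libraries, against 0.02 over all tested genes. It was -0.24 without muscle library 4, against 0.01 over all tested genes. Fewer cells making a transcript and less of it per cell cannot be told apart in such pooled libraries.

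**Figure D1:**
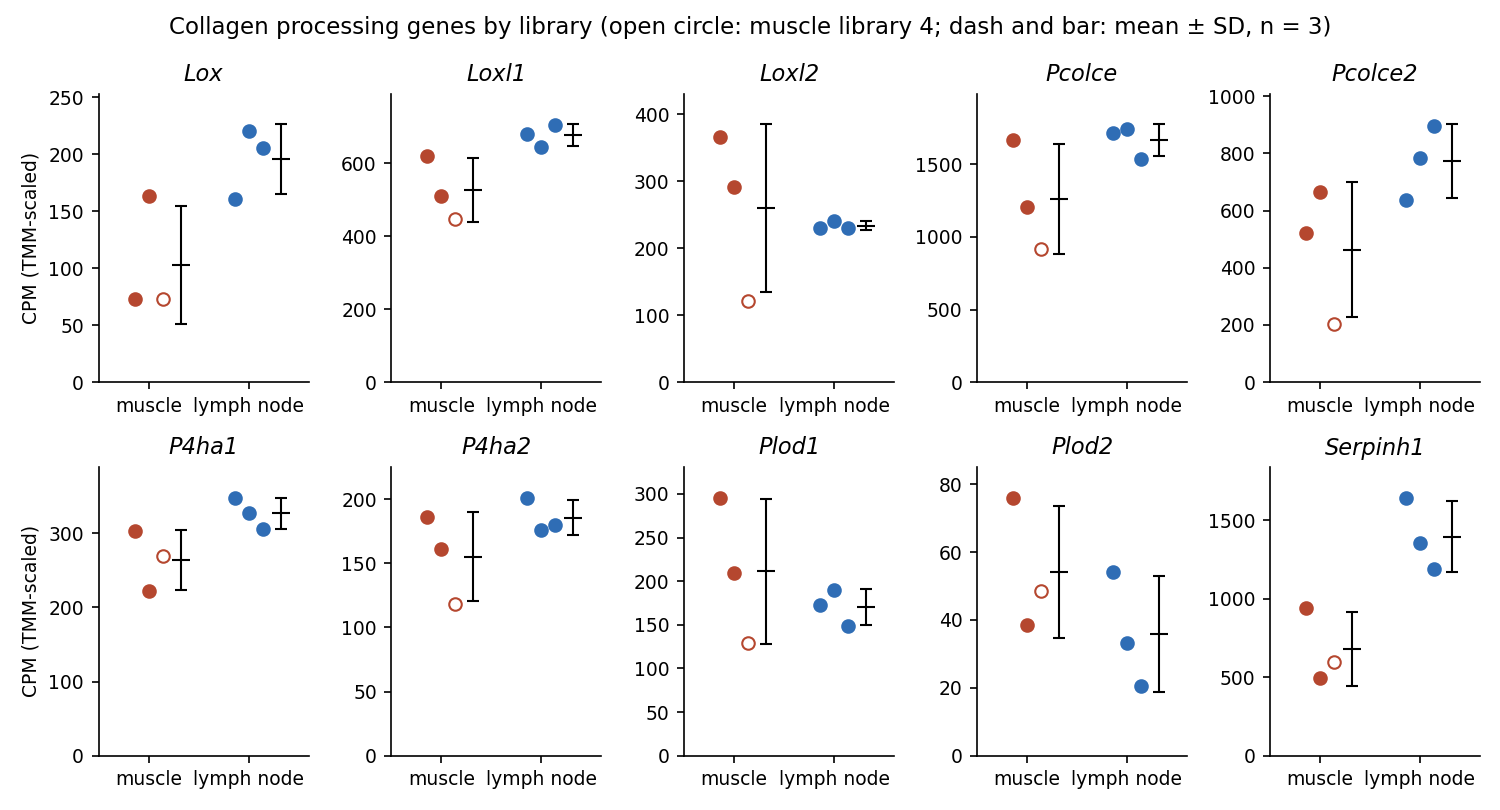
Level of each gene in every library, in CPM scaled by TMM library size on linear axes from 0, muscle left and lymph node right. Circles are libraries, the open circle is muscle library 4, and the dash with bar is the mean ± SD of 3 libraries. Serpinh1, Loxl1 and P4ha1 lie lower in each muscle library than in every lymph node one, as do 13.7% of all tested genes. Muscle library 4 is the lowest of all 6 libraries for 7 of the 10 genes, a count not set against all genes. For Lox, 1 of the 7, it nearly ties with muscle library 2 (72.6 and 73.3 CPM).

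Serpinh1, which encodes the collagen-specific chaperone HSP47 of the endoplasmic reticulum, showed the lowest p of the 10 and about a 2.05-fold lower level in muscle. The gene lies on chromosome 7 at 99345376 to 99353239 (GRCm38, minus strand), and no 25-base word of its transcripts occurs in another gene. It measured 943, 497 and 599 CPM in muscle libraries 2, 3 and 4, and 1643, 1355 and 1191 CPM in lymph node libraries 1, 2 and 3. The tissues did not overlap, and the lowest lymph node library exceeded the highest muscle library. The change on the log2 scale was -1.03 ± 0.26 (SE, edgeR adjusted p = 0.0621) with all libraries, and -0.96 ± 0.22 (adjusted p = 0.0104) without muscle library 4. The call was also made without muscle library 2 (adjusted p = 0.0294) but not without muscle library 3 (adjusted p = 0.201) or without lymph node library 1, 2 or 3 (adjusted p = 0.258, 0.245 and 0.165). Relative to its substrates within each library, Serpinh1 had 13.02, 9.997 and 9.55 counts per 1000 fibrillar collagen counts in muscle and 19.0, 20.5 and 17.0 in lymph node. This ratio does not depend on scaling between libraries, and its tissues did not overlap either, though no share over all genes was computed for it.

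Other groups of genes were, like Serpinh1, lower in muscle than in lymph node. The heat shock genes, whose family of chaperones is induced by protein damage, summed to 1223, 1016 and 1511 CPM in muscle libraries 2, 3 and 4. In lymph node libraries 1, 2 and 3 they summed to 2229, 4734 and 3715 CPM. Within lymph node Serpinh1 was highest in library 1 (1643 CPM), where the heat shock sum was lowest. An order of 3 libraries decides nothing about a link. Of 11 tested heat shock genes 5 fell in muscle and none rose, and 6 fell without muscle library 4, beside 2.86% and 7.58% of all genes. Dnajb1, a co-chaperone of HSP70, fell by 3.55 ± 0.30 on the log2 scale (edgeR adjusted p = 4.45e-04). Genes known to respond to tissue dissociation, such as Fos and Jun, summed to between 3368 and 4161 CPM in muscle and between 22703 and 25024 CPM in lymph node, with 16 of 17 called lower. The part of either group in the Serpinh1 values was not tested.

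A few other genes followed the level of Serpinh1 across the libraries. Among 3397 other tested genes of at least 50 mean CPM, the 5 with the highest Pearson r of log2 CPM over the 6 libraries were Pdia4 (r = 0.987), Rpn1 (0.978), Hsp90b1 (0.976), Pdia3 (0.975) and Sh3pxd2b (0.972), as a description that rests on 6 points sharing the tissue difference. Pdia4 and Pdia3 encode disulfide isomerases, Rpn1 a subunit of the enzyme that attaches N-glycans, Hsp90b1 the chaperone GRP94, and Sh3pxd2b a scaffold of podosomes. Hsp90b1 measured 808, 579 and 527 CPM in muscle and 1382, 1174 and 1085 CPM in lymph node. Its log2 fold change was -0.92, given with no test because the likeness to Serpinh1 over the same libraries chose the gene.

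Lox, the founding lysyl oxidase that acts on collagen and elastin (chromosome 18, 52516067 to 52529867, GRCm38, minus strand), had the second-lowest p of the 10. It measured 73.3, 163 and 72.6 CPM in muscle, and 161, 219.96 and 205 CPM in lymph node. Muscle library 3 reached the level of the lowest lymph node library, so the tissues overlapped, while muscle libraries 2 and 4 lay well below all others. With all libraries the log2 fold change was -0.90 ± 0.32 (edgeR adjusted p = 0.204), compared with -0.76 ± 0.25 (adjusted p = 0.0694) without muscle library 4. Without muscle library 3 it was -1.43 ± 0.25 (adjusted p = 0.0300) and passed the threshold.

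Loxl1, a lysyl oxidase best known for the upkeep of elastic fibres (chromosome 9, 58287738 to 58313186, minus strand), was measured at higher levels with less spread. Values were 620.3, 512 and 446 CPM in muscle and 681, 645 and 704 CPM in lymph node. Muscle values all lay under the lymph node values, yet the difference was small, at -0.36 ± 0.18 on the log2 scale (edgeR adjusted p = 0.412) and -0.26 ± 0.14 without muscle library 4 (adjusted p = 0.272). Per 1000 fibrillar collagen counts the tissues overlapped, with 8.56, 10.3 and 7.11 in muscle and 7.87, 9.74 and 10.1 in lymph node.

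Loxl2, which crosslinks collagen IV of basement membranes (chromosome 14, 69609068 to 69695834, plus strand), was split between the muscle libraries. It measured 366, 292 and 121 CPM in muscle, and 230.1, 241 and 230.4 CPM in lymph node. Muscle libraries 2 and 3 lay above all lymph node libraries and muscle library 4 below them, with a 95% Poisson counting interval from 88.2 to 162 CPM on its 45 counts. With all libraries the log2 fold change was 0.18 ± 0.32 (edgeR adjusted p = 0.865), compared with 0.49 ± 0.14 (adjusted p = 0.0368) without muscle library 4 and -0.16 ± 0.34 without muscle library 2. Also without muscle library 4, limma-voom called it (adjusted p = 0.0305) and DESeq2 did not (adjusted p = 0.0616). Loxl2 is uncertain as a single gene, because 46.9% of its 25-base words occur in other genes, 43.4% in the model Gm21451, which held between 2 and 16 counts per library.

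Counts of Loxl2 exceeded those of Lox by 4.99-fold, 1.79-fold and 1.67-fold in muscle libraries 2, 3 and 4, and by 1.43-fold, 1.10-fold and 1.122-fold in lymph node libraries 1, 2 and 3. This within-library ratio, chosen after the values were seen and not tested, was higher in every muscle library than in any lymph node library. In muscle library 4 it rested on only 45 counts of Loxl2 and 27 of Lox. The shared words of Loxl2 limit the ratio as well. The ratios are of counts and are not corrected for the length of the genes.

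Pcolce, an extracellular protein that speeds the removal of the procollagen C-propeptide by BMP1 (chromosome 5, 137605103 to 137613784, minus strand), was the most counted gene of the 10. It measured 1665, 1209 and 914 CPM in muscle and 1714, 1739 and 1537 CPM in lymph node. The tissues overlapped through muscle library 2, and the log2 fold change was -0.39 ± 0.23 (edgeR adjusted p = 0.496), or -0.22 ± 0.15 without muscle library 4 (adjusted p = 0.441). Its relative Pcolce2 (chromosome 9, 95637601 to 95698096, plus strand) measured 522, 665 and 204 CPM in muscle and 638, 783 and 896 CPM in lymph node. Muscle library 4 held 34.4% of the mean of muscle libraries 2 and 3, the lowest such share of the 10 genes. With all libraries Pcolce2 differed by -0.72 ± 0.36 (adjusted p = 0.401), compared with -0.39 ± 0.16 (adjusted p = 0.157) without muscle library 4.

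The prolyl hydroxylase subunits did not pass in either fit. P4ha1, the main catalytic subunit (chromosome 10, 59323296 to 59373304, plus strand), measured 303, 222 and 269 CPM in muscle and 348, 327 and 306 CPM in lymph node. Muscle values were all below the lymph node values, by -0.31 ± 0.18 on the log2 scale (edgeR adjusted p = 0.514). Relative to its substrate P4ha1 overlapped between the tissues, at 4.18, 4.47 and 4.28 counts per 1000 fibrillar collagen counts in muscle and 4.02, 4.94 and 4.38 in lymph node. P4ha2, the second isoform of the subunit (chromosome 11, 54100095 to 54131665, plus strand), measured 186, 161 and 118 CPM in muscle and 201, 176 and 179.8 CPM in lymph node (-0.23 ± 0.21, adjusted p = 0.684). Muscle library 2 lay within the lymph node range.

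Both lysyl hydroxylases had positive log2 fold changes. Plod1, which hydroxylates lysines in the helix (chromosome 4, 147909753 to 147936767, minus strand), measured 295, 209.8 and 129 CPM in muscle and 173, 189 and 149 CPM in lymph node. As for Loxl2, muscle libraries 2 and 3 lay above all lymph node libraries and muscle library 4 below them. With all libraries the log2 fold change was 0.34 ± 0.28 (edgeR adjusted p = 0.658), compared with 0.57 ± 0.17 (adjusted p = 0.0417) without muscle library 4, and 0.00 ± 0.26 without muscle library 2. Also without muscle library 4, limma-voom gave an adjusted p of 0.0384 and DESeq2 one of 0.0639. Per 1000 fibrillar collagen counts Plod1 had 4.08, 4.22 and 2.06 counts in muscle and 2.00, 2.86 and 2.13 in lymph node.

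Plod2 hydroxylates lysines of the telopeptides, the short non-helical ends, and so sets the type of crosslink (chromosome 9, 92542223 to 92608428, plus strand). Its mean CPM was the lowest of the 10 genes in either tissue, with between 18 and 144 counts per library, although Lox was lower in muscle library 2. Levels were 76.0, 38.4 and 48.4 CPM in muscle and 54.2, 33.1 and 20.5 CPM in lymph node, with overlap (0.64 ± 0.39, edgeR adjusted p = 0.519). Per 1000 fibrillar collagen counts the tissues did not overlap, with 1.05, 0.773 and 0.771 in muscle and 0.627, 0.499 and 0.293 in lymph node. At 18 counts in muscle library 4 the 95% Poisson interval ran from 28.7 to 76.5 CPM, which spans most of the values of both tissues. The same 18 counts limit the ratio to fibrillar collagen, for which no share over all genes was computed. The antisense model Gm38391 shares 5.98% of its 25-base words, and strand use in counting is not stated.

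**Figure D2:**
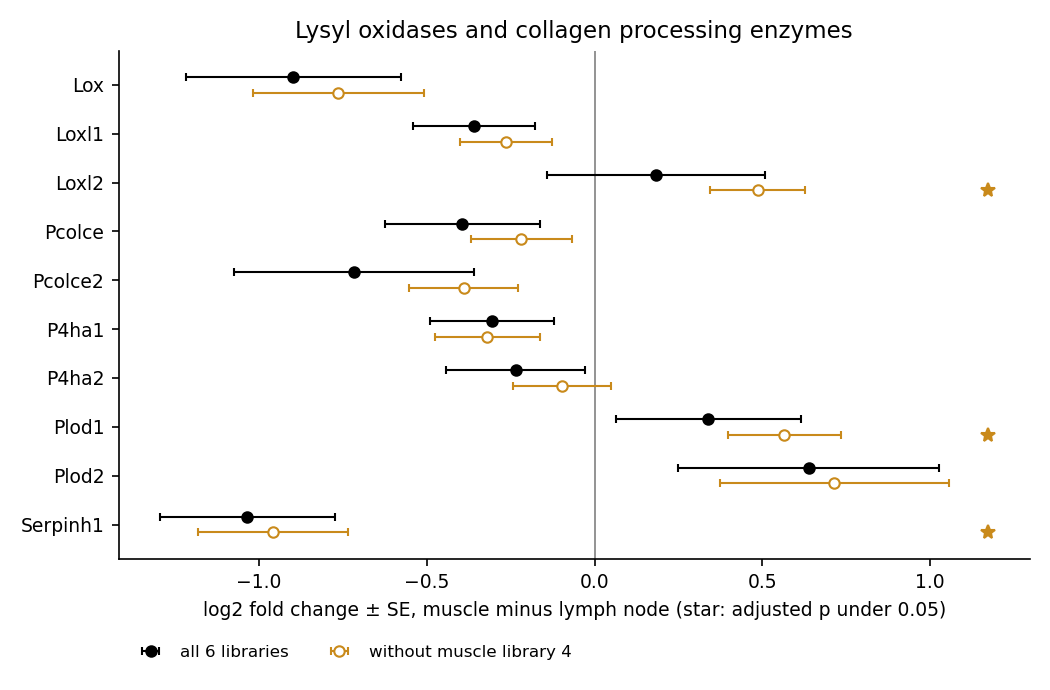
Log2 fold change, muscle minus lymph node, with its standard error for the 10 genes, from the edgeR fit with all 6 libraries (filled) and without muscle library 4 (open). Stars mark adjusted p under 0.05. None is starred with all libraries, and Loxl2, Plod1 and Serpinh1 are starred without muscle library 4.

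Counted by overlap alone, 3 of the 10 genes (Loxl1, P4ha1 and Serpinh1) were lower in every muscle library than in any lymph node library, as were 13.7% of all tested genes, and none was higher in every muscle library, as were 9.93%. Without muscle library 4 the same 3 genes lay below, against 19.9% of all genes, and 2 (Loxl2 and Plod1) lay above, against 19.8%. The 10 genes together made up 0.519%, 0.411% and 0.262% of counts in muscle libraries 2, 3 and 4, and 0.553%, 0.554% and 0.517% in lymph node libraries 1, 2 and 3. Fibrillar collagen chains, 11 genes of which Col3a1, Col1a1 and Col1a2 hold most counts, made up 7.44%, 5.15% and 5.62% in muscle and 8.19%, 6.43% and 6.68% in lymph node. Relative to these chains the 10 genes had 69.7, 79.8 and 46.6 counts per 1000 in muscle and 67.5, 86.2 and 77.5 in lymph node, so that muscle libraries 2 and 3 lay inside the lymph node range and muscle library 4 below it.

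**Figure D3:**
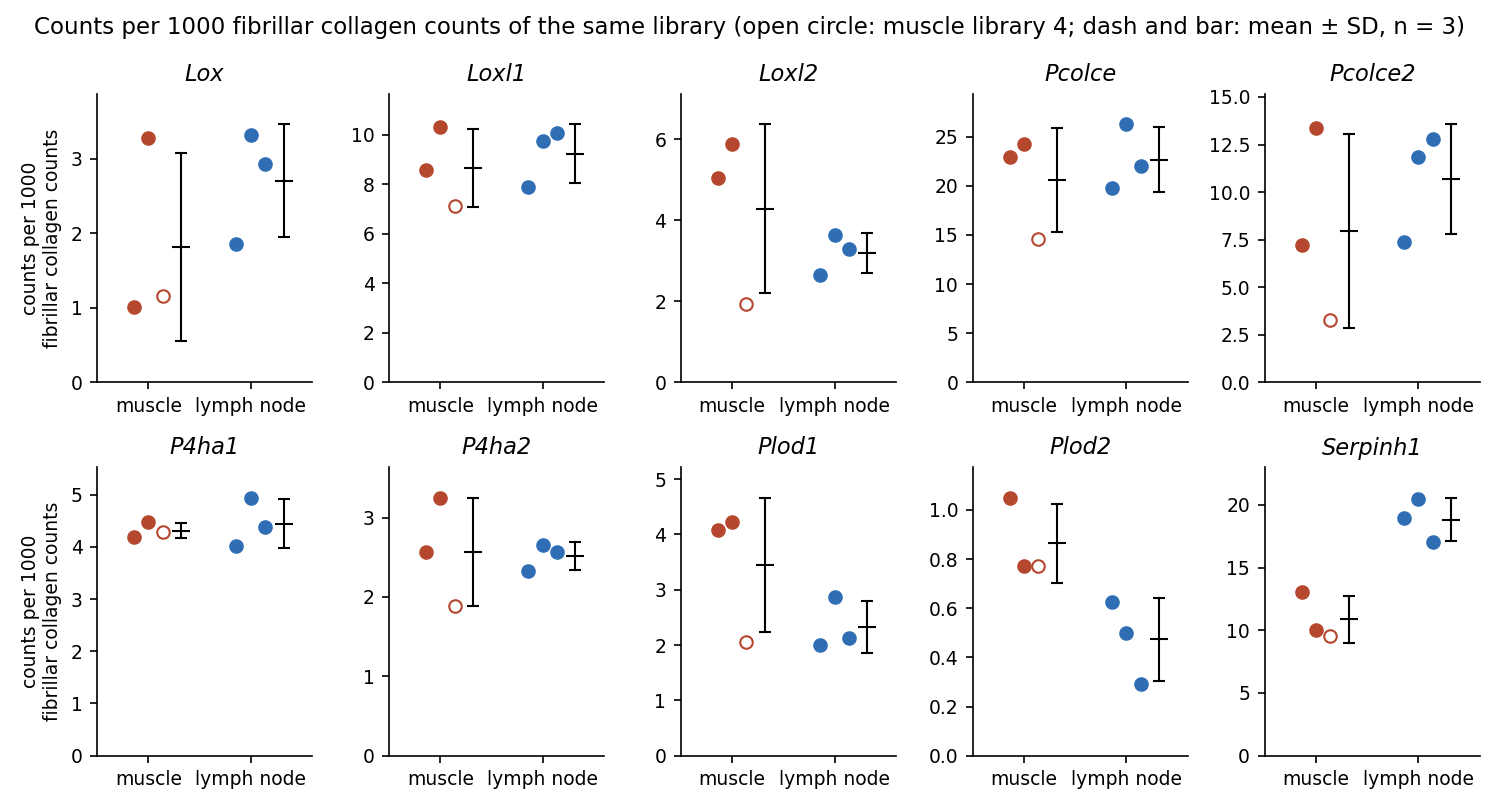
Counts of each gene per 1000 counts of 11 fibrillar collagen chains in the same library, on linear axes from 0, muscle left and lymph node right, with the mean ± SD of 3 libraries. Serpinh1 lies between 9.55 and 13.02 in muscle and between 17.0 and 20.5 in lymph node, and P4ha1 between 4.02 and 4.94 in all 6 libraries.

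Scaled by exon length, Pcolce and Serpinh1 were the most abundant of the 10 transcripts in both tissues and Plod2 the least. In muscle Pcolce averaged 330.2 ± 98.9 CPM per kb of exon, Serpinh1 278 ± 95.6 and Loxl1 159.6 ± 26.7 (SD, n = 3). In lymph node Serpinh1 averaged 572 ± 93.7 CPM per kb, Pcolce 435 ± 28.8, Loxl1 205 ± 9.02 and Pcolce2 167 ± 27.9 (SD, n = 3). Pcolce and Serpinh1 overlapped in muscle, whereas in lymph node every Serpinh1 value, from 488 to 673, exceeded every Pcolce value, from 402 to 455. This order depends on the exon lengths used, 2443 bases for Serpinh1 and 3823 for Pcolce, which join the exons of all annotated transcripts. In CPM without length scaling, Pcolce was above Serpinh1 in each lymph node library. Next in muscle by mean were Pcolce2 at 100.3 ± 51.0, which overlapped both Loxl1 and P4ha1, and P4ha1 at 64.3 ± 9.85, and then Loxl2, Plod1, P4ha2 and Lox between 21.5 and 48.0, whose libraries overlapped from each gene to the next. In lymph node P4ha1 averaged 79.5 ± 5.03, Loxl2 43.3 ± 1.15 and Lox 40.9 ± 6.42, with Loxl2 inside the range of Lox, followed by P4ha2 at 29.8 ± 2.15 and Plod1 at 25.2 ± 3.02. Plod2 averaged 10.1 ± 3.61 CPM per kb in muscle and 6.67 ± 3.16 in lymph node. The value of Loxl2 per length is uncertain because of its shared words.

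**Figure D4:**
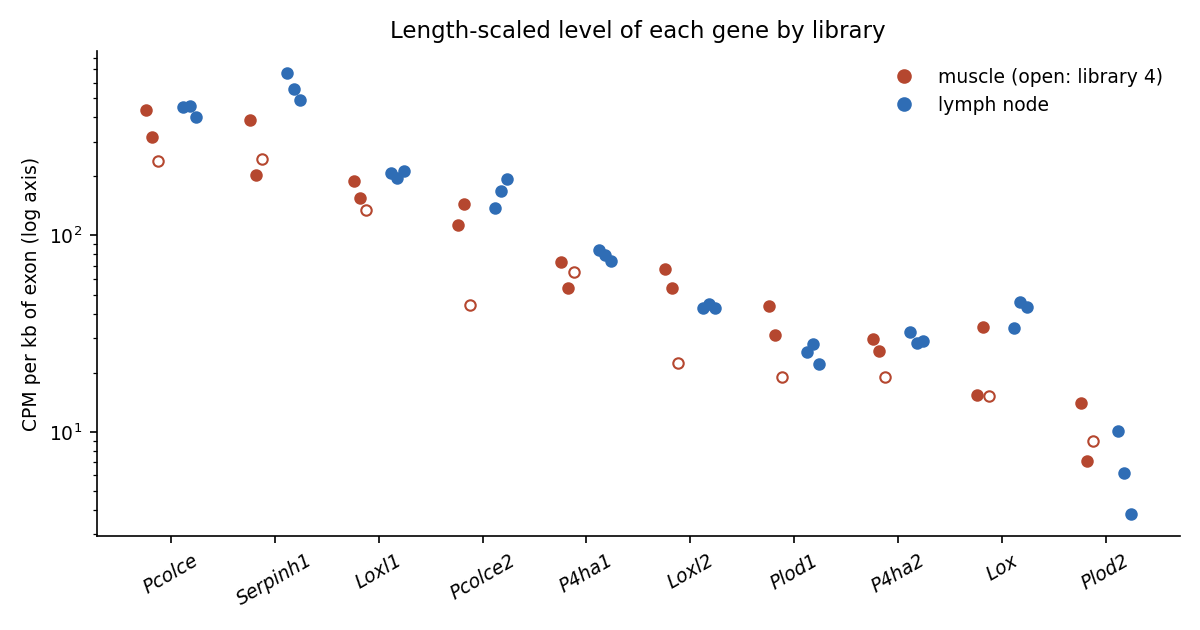
CPM per kilobase of summed exon length on a log axis for every library, genes ordered by their mean in muscle, muscle left and lymph node right of each gene. On this length-scaled measure Serpinh1 is the highest gene in lymph node at 572 on average and Plod2 the lowest in both tissues.

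The promoters of Serpinh1, Plod1, P4ha1 and P4ha2 are shown because P4ha1 and P4ha2 are known targets of the hypoxia response and Serpinh1 of heat shock, and because Serpinh1 and Plod1 were called in opposite directions without muscle library 4. RefSeq windows on GRCm38.p6 were found for 6 of the 10 genes, and the sequences below are the 250 bases before the RefSeq start, 5′ to 3′ on the gene's strand, with the hypoxia response cores ACGTG and GCGTG, or their reverse complements CACGT and CACGC, in capitals.
Serpinh1, chr7:99353240-99353489, minus strand: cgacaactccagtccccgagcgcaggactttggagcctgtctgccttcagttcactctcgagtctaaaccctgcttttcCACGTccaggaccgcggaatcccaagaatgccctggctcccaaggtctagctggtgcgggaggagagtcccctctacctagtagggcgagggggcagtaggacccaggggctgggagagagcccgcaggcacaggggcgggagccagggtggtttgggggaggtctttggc
Plod1, chr4:147936777-147937026, minus strand: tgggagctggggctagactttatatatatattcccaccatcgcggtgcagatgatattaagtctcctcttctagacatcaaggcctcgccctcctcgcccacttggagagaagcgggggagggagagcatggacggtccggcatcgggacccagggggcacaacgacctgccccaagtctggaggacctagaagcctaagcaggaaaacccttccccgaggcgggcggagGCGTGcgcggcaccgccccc
P4ha1, chr10:59323046-59323295, plus strand: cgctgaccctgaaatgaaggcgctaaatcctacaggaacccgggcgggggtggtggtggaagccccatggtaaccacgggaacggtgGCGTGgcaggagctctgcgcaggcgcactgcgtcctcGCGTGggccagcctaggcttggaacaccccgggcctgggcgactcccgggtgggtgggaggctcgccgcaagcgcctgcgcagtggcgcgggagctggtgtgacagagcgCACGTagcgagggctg
P4ha2, chr11:54100674-54100923, plus strand: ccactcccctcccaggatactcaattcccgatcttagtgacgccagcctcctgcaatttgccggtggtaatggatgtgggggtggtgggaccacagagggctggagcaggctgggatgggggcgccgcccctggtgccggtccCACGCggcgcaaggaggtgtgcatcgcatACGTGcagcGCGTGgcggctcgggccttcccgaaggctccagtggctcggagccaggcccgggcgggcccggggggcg
Of the 6 windows P4ha1 and P4ha2 hold 3 cores each, Serpinh1, Plod1 and Pcolce 1 each and Pcolce2 none. Searched on both strands, ACGTG stands in 16.6% and GCGTG in 28.2% of all 32851 such windows. A heat shock element, searched as TTC, GAA and TTC with 2 bases between neighbours, stands in 0.466% of all windows and in none of these 6 windows. An endoplasmic reticulum stress element, searched as CCAAT and CCACG with 9 bases between them, stands in 0.113% of all windows and in none of these 6, while the window of Hsp90b1 holds 2. Other forms of either element, and sequence outside the 250 bases, were not searched. A match is a description of the letters and does not show that a factor binds. The windows of P4ha2 and Pcolce lie inside their GENCODE genes, which start further upstream. The Pcolce window overlaps 83 bases and the Pcolce2 window 27 bases of their own untranslated exons.

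Of 19 tested hypoxia-induced genes 1 was lower in muscle and none higher, beside 2.86% lower over all genes, and without muscle library 4 it was 2 of 20, beside 7.58%. These shares are near the background, and the median log2 fold change of the 19 was -0.08, with 9 above 0. The gene called with all libraries was Adm, which encodes the vasodilator adrenomedullin (-1.15 ± 0.26 on the log2 scale, edgeR adjusted p = 0.0386). The list summed to between 1137 and 1190.0 CPM in muscle and between 1367 and 1544 CPM in lymph node.

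Beyond the 10 genes, 36 others act in the same steps of collagen modification, folding, export, propeptide removal and crosslinking, and 33 had enough counts to be tested. Of these 1 was higher in muscle, beside 1.46% of all genes, none was lower, beside 2.86%, and 32 were not called with all libraries. Without muscle library 4, 1 of 34 was higher, beside 4.79% of all genes, and 6 were lower, beside 7.58%. Their median log2 fold change was -0.36 against 0.02 over all tested genes, or -0.25 against 0.01 without muscle library 4. Of the 33, 9 had an unadjusted p under 0.05 and lower values in muscle, as did 8.42% of all genes, and 2 had one with higher values, as did 6.71%, while DESeq2 called 2 and limma-voom 1 as lower.

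Colgalt2, which attaches galactose to hydroxylysine of collagen, was the gene higher in muscle. It measured 75.4, 84.5 and 86.0 CPM in muscle, and 9.14, 17.6 and 10.9 CPM in lymph node. Every muscle library exceeded every lymph node library, and the log2 fold change was 2.67 ± 0.28 (edgeR adjusted p = 0.00114), a 6.38-fold higher level. The call was made in all 17 alternatives, with log2 fold changes between 2.16 and 2.99. Its relative Colgalt1, which does the same reaction, measured 149.995 ± 33.3 CPM in muscle libraries, against 164 ± 8.68 CPM in lymph node (SD, n = 3 each, adjusted p = 0.805). The lysyl hydroxylase Plod3 measured 86.7 ± 53.1 CPM in muscle libraries, against 127 ± 8.26 CPM in lymph node (adjusted p = 0.663).

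Among the other crosslinking genes, Loxl4 was low in both tissues and fell in muscle without library 4. It had 26, 17 and 0 counts in muscle and 72, 80 and 98 in lymph node. With all libraries it differed by -1.84 ± 0.47 on the log2 scale (edgeR adjusted p = 0.0667), compared with -1.58 ± 0.26 (adjusted p = 8.27e-04) without muscle library 4. Efemp2, a fibulin that binds Lox and is needed for elastic fibres, measured 162, 144 and 51.1 CPM in muscle and 261, 237 and 242 CPM in lymph node. It differed by -0.99 ± 0.33 (adjusted p = 0.164), or by -0.69 ± 0.14 without muscle library 4 (adjusted p = 0.00456), and Mus81 overlaps it on the other strand. Loxl3, a further lysyl oxidase, measured 117 ± 33.9 CPM in muscle libraries, against 157 ± 7.47 CPM in lymph node (SD, n = 3 each, adjusted p = 0.507), and 10.3% of its 25-base words are shared with the overlapping gene Htra2.

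The other genes lower without muscle library 4 were chaperones and isomerases of the endoplasmic reticulum. Hspa5, the general chaperone BiP, measured 1445, 864 and 1328 CPM in muscle and 1690.3, 2386 and 1959 CPM in lymph node (-0.81 ± 0.20, edgeR adjusted p = 0.0156). Pdia4 was at -0.91 ± 0.20 (adjusted p = 0.00714), the lectin chaperone Calr at -0.61 ± 0.15 (adjusted p = 0.0179) and the prolyl isomerase Fkbp14 at -0.64 ± 0.19 (adjusted p = 0.0389), all without muscle library 4. With all libraries their adjusted p were 0.154 for Hspa5, 0.0547 for Pdia4, 0.242 for Calr and 0.144 for Fkbp14.

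Partners of the prolyl hydroxylases did not pass in either fit. P4hb, the disulfide isomerase that forms the enzyme with P4ha1 or P4ha2, measured 908 ± 149.6 CPM in muscle libraries, against 1237 ± 81.0 CPM in lymph node (SD, n = 3 each, edgeR adjusted p = 0.295). P3h1, Crtap and Ppib, which together hydroxylate a single proline of collagen chains, had log2 fold changes of -0.28, -0.46 and -0.57 (adjusted p = 0.633, 0.384 and 0.391), and Ppib is uncertain because 39.7% of its 25-base words occur in other genes. The third subunit gene, P4ha3, had 8, 3 and 0 counts in muscle and 2 in each lymph node library, too few to test. Fkbp10, an isomerase that works with the lysyl hydroxylases, was at -0.31 ± 0.22 (adjusted p = 0.582).

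The propeptide-cutting proteases did not pass in either fit. Bmp1, the C-proteinase that Pcolce assists, measured 559.97 ± 123 CPM in muscle libraries, against 584 ± 18.1 CPM in lymph node (log2 fold change -0.05 ± 0.20, edgeR adjusted p = 0.945). Adamts2, an N-proteinase, measured 359 ± 126 CPM in muscle libraries, against 377 ± 163 CPM in lymph node (SD, n = 3 each, adjusted p = 0.970). Adamts3, of the same list, had 17, 25 and 3 counts in muscle and 13, 8 and 8 in lymph node, with every muscle library higher in CPM. It differed by 1.40 ± 0.55 on the log2 scale (edgeR adjusted p = 0.256), or by 1.52 ± 0.50 without muscle library 4 (adjusted p = 0.0676). These p-values do not show that the levels are equal.

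**Figure D5:**
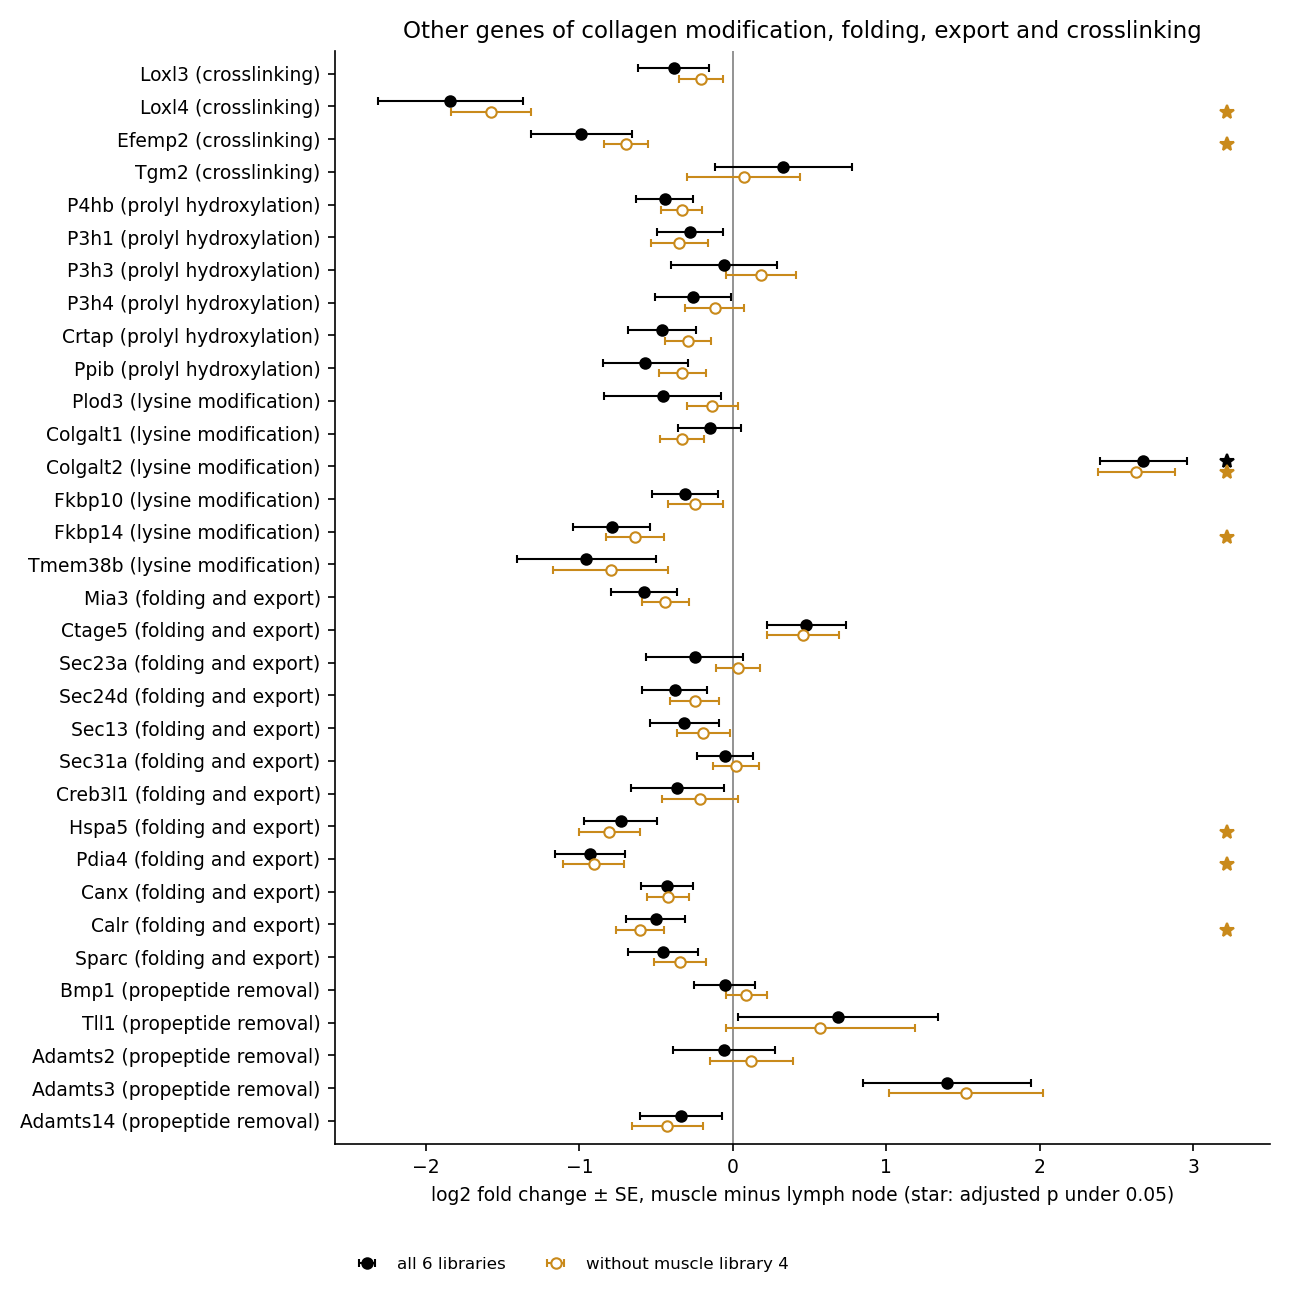
Log2 fold change, muscle minus lymph node, with its standard error for the 33 other tested genes of the pathway, with all 6 libraries (filled) and without muscle library 4 (open), and the step of each gene in brackets. Stars mark adjusted p under 0.05. Colgalt2 is starred in both fits at 2.67 and 2.63, and 6 genes below 0 are starred without muscle library 4.

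The substrates did not pass with all libraries. Of 12 listed chains of fibrillar collagen and elastin, 8 were tested and none was called, beside 4.32% of all genes. Of the 8, 2 had an unadjusted edgeR p under 0.05 and higher values in muscle (Eln and Col5a3), as had 6.71% of all genes. Col5a3, a minor chain of collagen V, measured 864, 755 and 731 CPM in muscle, and 570, 579 and 501 CPM in lymph node, with no overlap. It differed by 0.51 ± 0.17 (edgeR adjusted p = 0.163), or by 0.55 ± 0.13 without muscle library 4 (adjusted p = 0.0136). Col1a1 measured 11079 ± 1820.0 CPM in muscle libraries, against 14419 ± 3272 CPM in lymph node (SD, n = 3 each, log2 fold change -0.38 ± 0.24, edgeR adjusted p = 0.528). Col1a2 was at -0.40 ± 0.23 (adjusted p = 0.473), Col3a1 at -0.23 ± 0.25 (adjusted p = 0.753) and Col5a1 at 0.22 ± 0.23 (adjusted p = 0.746). Eln, the elastin gene and a substrate of Lox and Loxl1, measured 208.3, 208.2 and 653 CPM in muscle, and 82.8, 113 and 117 CPM in lymph node. With all libraries it differed by 1.73 ± 0.43 on the log2 scale (edgeR adjusted p = 0.0606), compared with 0.99 ± 0.16 (adjusted p = 7.58e-04) without muscle library 4, which held the highest value. In muscle libraries 2 and 3 Eln was thus about 1.98-fold higher than in lymph node, while Lox was about 1.70-fold lower and did not pass.

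Markers of other cell types were summed in each library, with no test. The 3 tenocyte markers, of which Scx was at 0 in muscle libraries 3 and 4, summed to between 8.06 and 38.4 CPM in muscle and between 1.14 and 7.73 CPM in lymph node. The 8 muscle fibre markers summed to between 48.4 and 86.1 CPM in muscle and between 11.4 and 12.3 CPM in lymph node, with Mb at 0 in all lymph node libraries and Acta1, Ckm, Tnnt3 and Mb at 0 in muscle library 4. The 6 mural cell markers summed to between 64.4 and 75.3 CPM in muscle and between 33.7 and 49.7 CPM in lymph node. Endothelial markers summed to between 185 and 380.4 CPM in muscle and between 269 and 349 CPM in lymph node, with Cldn5 at 0 in all libraries. The part of these cell types in the results was not tested.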

How the data were processed

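Polyadenylated RNA of 1000 sorted cells per library was copied with oligo(dT), amplified, tagged with a transposase and read as pairs of 25 bases, per the labels' protocols. The deposited table holds raw counts per gene symbol, made with STAR 2.5.4 and featureCounts on mm10, per the submitters' processing notes. Annotation release, strand setting and treatment of multi-mapping reads are not recorded there. Without molecular identifiers, intervals cover counting error only. Lymph node columns match sample titles, whereas the muscle columns, numbered 2, 3 and 4, count as replicates of muscle that cannot be tied to individual samples.

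All 10 member symbols and the other lists were chosen with earlier results of these data known. The counts were filtered with filterByExpr, scaled by TMM and compared between tissues over all 6 libraries by the quasi-likelihood F test of edgeR 4.0.16 (R 4.3.3), adjusted over all genes tested and called under 0.05. Standard errors were obtained as |log2 fold change| over the root of F. The procedure was tested on simulated data. Named genes are the 10, listed partners and substrates, pathway genes called in either fit, and the 5 genes most correlated with the member of smallest p. Coordinates and exon lengths come from GENCODE release M21 (GRCm38, the assembly of mm10), and promoters from RefSeq. Ctage5 stands for Mia2. Alternatives were RLE and total-count scaling, no filter, a filter of 10 CPM in 3 libraries, DESeq2 1.42.0, limma-voom (limma 3.58.1), summing muscle libraries 2 and 3, a replicate block, thinning to the shallowest library and leaving out each library. DESeq2 and limma-voom without muscle library 4 were added after seeing the data.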

Additional observations from a re-analysis of the deposited data

How the results depend on the processing

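All 10 member fold changes kept their direction in all 17 alternatives, except Loxl2 (-0.013 on the log2 scale with muscle libraries 2 and 3 summed, and between -0.16 and 0.49 when 1 library was left out, lowest without muscle library 2) and P4ha2 (0.021 when libraries were thinned to the shallowest). Plod1 kept its sign only nominally without muscle library 2, at 0.00 ± 0.26. Of 170 member results, 147 stayed on their side of the threshold in the same direction, 20 newly passed it and 3 turned direction. Most of the 20 came from the replicate block and from the edgeR, DESeq2 and limma-voom fits without muscle library 4. The alternatives share libraries and are not independent. Members called lower, 0 in the main test, numbered 2 without a filter, 1 with DESeq2, 1 with limma-voom and between 0 and 1 when 1 library was left out. Members called higher numbered between 0 and 2 when 1 library was left out. Among the other pathway genes 1 was called higher, and those called lower numbered 3 without a filter, 2 with DESeq2, 1 with limma-voom and between 0 and 6 when 1 library was left out (6 without muscle library 4). Over all genes 468 (4.32%) were called, 945 (2.39%) without a filter and 222 (1.86%) with muscle libraries 2 and 3 summed. When 1 library was left out, between 142 (1.25%, without lymph node library 2) and 1391 (12.4%, without muscle library 4) were called. Added after seeing the data and without muscle library 4, limma-voom called 2 members higher and 2 lower and 7 pathway genes lower, beside 11.7% of all genes in either direction. DESeq2, likewise added, called 1 member and 5 pathway genes lower, beside 9.47% of all genes in either direction. The cause of these changes was not tested.

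With column number as a replicate block, 3 members were called higher and 3 lower, 3 pathway genes higher and 6 lower, and 1530 genes in all (14.1%). The numbers are not shown to pair the libraries: deviations from the tissue mean correlated at -0.03 for number 2 and 0.03 for number 3, and the block leaves the libraries with unshared numbers without weight. Depth limits Plod2 and the 18 to 340 member counts of muscle library 4.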
